A study of Homo sapiens with 480 samples.

Results

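Collagen chains are the gene products from which all collagens are assembled, and here they were followed in single human cells during reprogramming towards pluripotency. The genes were chosen by symbol alone, as every gene named COL, a number, A and a number. This gave 44 of the 27021 genes in the tables, sorted by known structure into 11 fibrillar, 9 basement membrane, 5 beaded filament and 19 other collagen chains. The other chains were 10 of the fibril-associated kind, 3 of the short chain kind, 4 transmembrane chains and 2 further ones.

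The cells came from BJ, an established line of human neonatal skin fibroblasts, and were captured singly on microfluidic chips for sequencing of polyadenylated RNA. The groups were untreated BJ cells (labelled wild type), cells on day 2 and on day 8 of induced viral expression of the factors OCT4, SOX2, KLF4 and MYC, and cells on day 16 of the same treatment sorted for presence or absence of the surface epitope TRA-1-60. These last are called the positive and the negative fraction, and TRA-1-60 is an epitope used to pick out cells that approach the pluripotent state. Every group except BJ carries the 4 factors, and all descend from 1 cell line. Each group held 96 cells, of which 92 BJ cells, 96 of day 2, 92 of day 8, 95 positive and 85 negative cells were kept. No label names separate cultures, so each group is 1 sample, its cells are not replicates, and no comparison below carries a test. A comparison of groups therefore compares these sets of cells.

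Polypeptide chains wind together into each collagen molecule, and different genes supply the chains. Fibrillar collagens build the tension-bearing fibres of skin, bone and cartilage, type IV collagen builds the sheet under epithelia and vessels, and type VI collagen builds beaded microfilaments around cells. Fibroblasts are the main makers of fibrillar collagen in skin, whereas epithelial and pluripotent cells rest on a basement membrane.

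Levels are FPKM (fragments scaled by transcript length and library total) rescaled to a total of 1000000 per cell, a chain counts as detected in a cell at a level of 1 or more, and the brackets after a share of cells give its exact 95% binomial (Clopper-Pearson) interval. These intervals, and the limit of 3 counts used where a share was 0, cover counting error over cells only. Between groups the effect is the log2 ratio of the means, each plus 1, which understates the change of low genes. A chain was measured in a comparison when at least 1 group had a mean of 1, and was called higher or lower at 2-fold or more when the mean of log2(level + 1) moved the same way. The depth per cell is unknown, and nothing says if the 5 tables had a common normalization, so levels set across groups rest on the rescaling. Whether reads covered whole transcripts is not stated either, so ratios between chains are read only as they differ between groups.

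Marker genes followed the labels. Of 16 fibroblast markers other than collagens, all 16 had a mean of at least 1 in every group except the positive fraction, where 12 had. Of 12 markers of pluripotent cells, 12 reached that mean in positive and 4 in negative cells. The median kept cell had 5678 to 5915 detected genes depending on the group, but 32 of 95 kept cells of the positive fraction had fewer than 4000, against 3 to 15 in the other groups.

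Of the 44 chains, 24 reached a mean of 10 or more in some group, 7 peaked between 1 and 10, and 13 stayed under 1 in every group. Among the 31 chains with a mean of 1 or more somewhere, 21 had their highest mean in the negative fraction, 5 in the positive fraction, 3 in BJ, 1 on day 2 and 1 on day 8. The heat map of chain means shows these courses side by side.

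**Figure D1:**
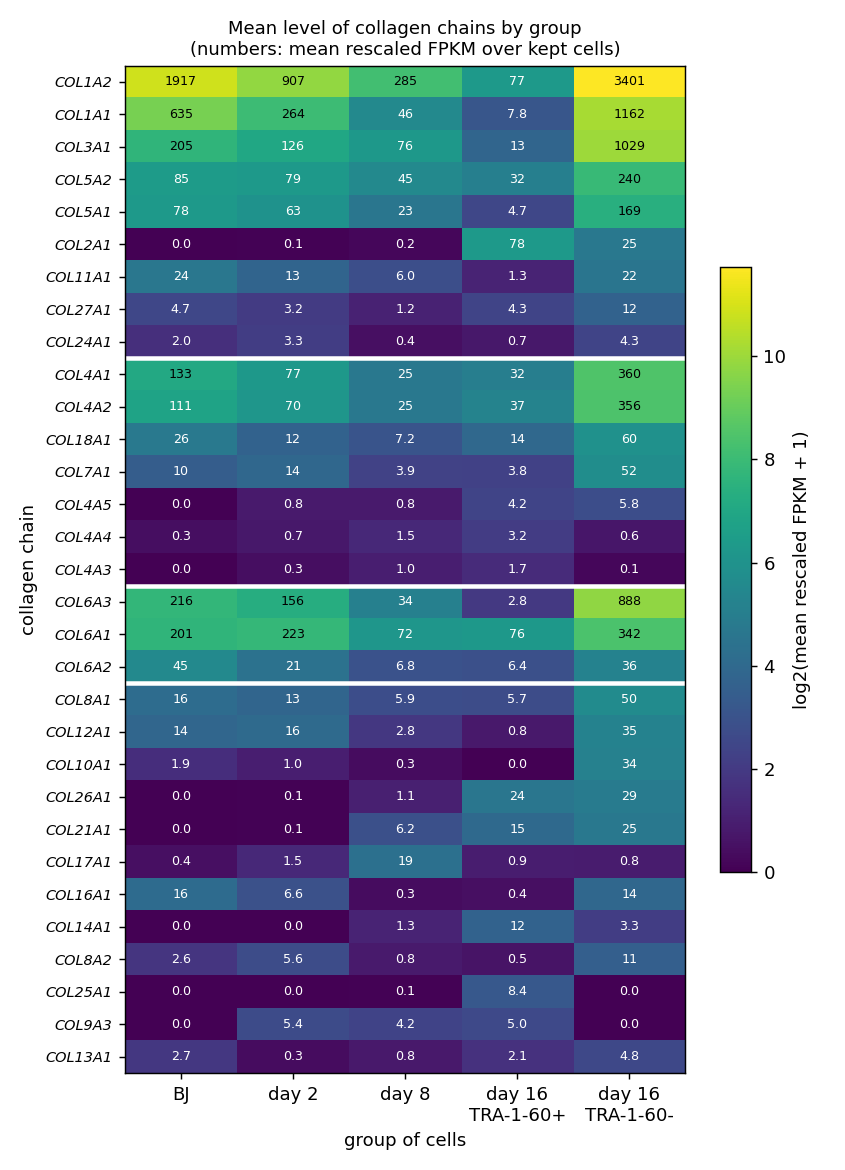
Mean rescaled FPKM of the 31 collagen chains with a mean of 1 or more in some group (rows, in the order fibrillar, basement membrane, beaded filament and other, divided by white lines) in the 5 groups of cells (columns), coloured by log2(mean + 1). COL1A2 runs from 76.8 in the positive to 3401 in the negative fraction, while COL2A1, COL26A1 and COL25A1 are near 0 in BJ.

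RefSeq promoter windows, from 250 bases before to 50 bases after a gene's start on build GRCh38.p14, were in hand for 32 of the 44 chains, as 44 windows. COL1A1, COL1A2, COL2A1, COL3A1, COL5A2, COL6A1, COL6A5, COL8A1, COL9A3, COL14A1, COL20A1 and COL22A1 had none. Windows of 5 chains are printed because their chains show the courses described below. COL4A1 and COL4A2 stand for a pair of chains that moved together, COL6A3 for a chain scarce in the positive fraction, COL17A1 for a chain highest on day 8 and COL26A1 for a chain present in both day 16 fractions. The letters searched, on both strands, were TATAAA (the core promoter box), CCAAT (bound by the factor NF-Y), GGGCGG (the GC box, bound by SP1), TGANTCA (bound by AP-1 factors) and CATTCC (bound by TEAD factors), and matches are in capitals.

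COL4A1 (chr13:110307108-110307407, minus strand) and COL4A2 (chr13:110307034-110307333, plus strand) lie head to head on chromosome 13, with starts 127 bases apart, so their windows share 226 bases. COL6A3 lies at chr2:237414115-237414414 on the minus strand, COL17A1 at chr10:104085831-104086130 on the minus strand and COL26A1 at chr7:101362625-101362924 on the plus strand. Each is written 5′ to 3′ on its gene's strand.
COL4A1: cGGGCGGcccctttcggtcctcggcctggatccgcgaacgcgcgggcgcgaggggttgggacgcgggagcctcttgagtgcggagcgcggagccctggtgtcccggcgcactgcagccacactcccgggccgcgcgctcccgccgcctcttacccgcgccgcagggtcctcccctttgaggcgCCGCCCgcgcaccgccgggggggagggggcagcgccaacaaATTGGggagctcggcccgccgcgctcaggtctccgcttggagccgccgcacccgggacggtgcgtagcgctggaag
COL4A2: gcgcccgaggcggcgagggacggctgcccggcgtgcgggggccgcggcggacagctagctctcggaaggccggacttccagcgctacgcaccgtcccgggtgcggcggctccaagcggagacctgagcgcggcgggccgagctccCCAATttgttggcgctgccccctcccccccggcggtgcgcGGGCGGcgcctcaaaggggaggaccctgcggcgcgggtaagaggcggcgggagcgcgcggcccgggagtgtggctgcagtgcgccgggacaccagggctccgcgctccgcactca
COL6A3: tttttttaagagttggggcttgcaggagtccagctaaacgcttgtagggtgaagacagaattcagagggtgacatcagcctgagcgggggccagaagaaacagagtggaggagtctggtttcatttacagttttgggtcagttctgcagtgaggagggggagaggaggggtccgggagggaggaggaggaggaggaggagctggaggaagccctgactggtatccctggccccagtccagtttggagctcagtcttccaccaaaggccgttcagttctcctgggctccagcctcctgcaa
COL17A1: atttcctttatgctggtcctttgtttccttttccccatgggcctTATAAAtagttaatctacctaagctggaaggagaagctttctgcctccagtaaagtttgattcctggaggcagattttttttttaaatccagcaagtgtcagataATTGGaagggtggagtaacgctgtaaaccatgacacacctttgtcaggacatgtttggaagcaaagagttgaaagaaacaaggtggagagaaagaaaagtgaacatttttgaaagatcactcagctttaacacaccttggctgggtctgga
COL26A1: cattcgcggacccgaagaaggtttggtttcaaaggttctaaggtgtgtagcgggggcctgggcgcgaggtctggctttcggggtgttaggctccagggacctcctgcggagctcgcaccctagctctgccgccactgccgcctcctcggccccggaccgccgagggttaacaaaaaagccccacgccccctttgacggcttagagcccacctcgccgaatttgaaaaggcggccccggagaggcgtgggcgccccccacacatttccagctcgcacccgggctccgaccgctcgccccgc

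The CCAAT box of COL4A2 and the match on the other strand of COL4A1 are the same bases, chr13:110307179-110307183, and a GC box at chr13:110307219-110307224 is likewise in both windows. A further GC box is in the COL4A1 window alone. COL17A1 holds TATAAA at bases 45 to 50 of its window and a CCAAT box on the other strand at bases 150 to 154, and neither COL6A3 nor COL26A1 holds any of the 5 strings in this window. No matches of different strings overlap in these windows. The windows of COL4A1 and COL4A2 each held 45 CG pairs and that of COL26A1 held 29, while COL6A3 had 4 and COL17A1 had 1.

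Across the family, the GC box was in 54.5% of the 44 collagen windows and 45% of all 35116 windows of this length. In the same order the CCAAT box was in 31.8% and 34.6%, TATAAA in 18.2% and 11.5%, the TEAD motif in 6.82% and 14% and the AP-1 motif in 2.27% and 7.71%. The AP-1 letters were in 1 of these windows, of COL10A1. The collagen windows had a median of 63.7% G and C and 17 CG pairs, against 58.7% and 14 over all windows. A match is a string of letters and not a bound site, and windows of 1 gene can overlap.

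Collagen message per cell was lower on day 2 than in BJ and lower again on day 8, and the sorted fractions of day 16 lay below and above it. The summed level of all 44 chains ran from 327 to 11389 (median 3354) in BJ cells and from 38 to 11968 (median 1661) on day 2. On day 8 it ran from 49.2 to 6836 (median 477), in the positive fraction from 5.89 to 3668 (median 232), and in the negative fraction from 2194 to 19007 (median 7887). The ranges of neighbouring days overlapped, but 93 of 95 positive cells lay below every negative cell, and 88 of 92 cells of day 8 did so as well. The median cell had 16 different chains detected in BJ, 15 on day 2, 12 on day 8, 8 in positive and 19 in negative cells.

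The makeup of that message changed as well. Fibrillar chains were 78.7% of the collagen sum over all BJ cells, 70% on day 2, 68.7% on day 8 and 72.4% in the negative fraction, but 45.9% in the positive fraction. There basement membrane chains made up 20.3% and the other collagens 15.8%, against 7.49% and 1.44% in BJ and 9.96% and 2.48% in the negative fraction. Beaded filament chains took 12.3% in BJ, 19.2% on day 2, 16% on day 8, 18.1% in positive and 15.1% in negative cells. These shares are of sums over all cells of a group, to which high cells add most. Median sums in positive cells were 43.8 for fibrillar, 46 for basement membrane, 27.7 for beaded filament and 30.3 for other chains. Those of BJ were 2440, 207, 368 and 33.2.

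COL1A2, which encodes the second chain of type I collagen, was the highest chain in 88 of 92 BJ cells, 81 of 96 cells of day 2, 58 of 92 cells of day 8 and 83 of 85 negative cells. It led in 14 of 95 positive cells. COL6A1 led in 23 and COL2A1 in 16 of those cells, and 21 different chains led in at least 1 of them. The negative fraction had 2 leading chains, COL1A2 and, in 2 cells, COL3A1.

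**Figure D2:**
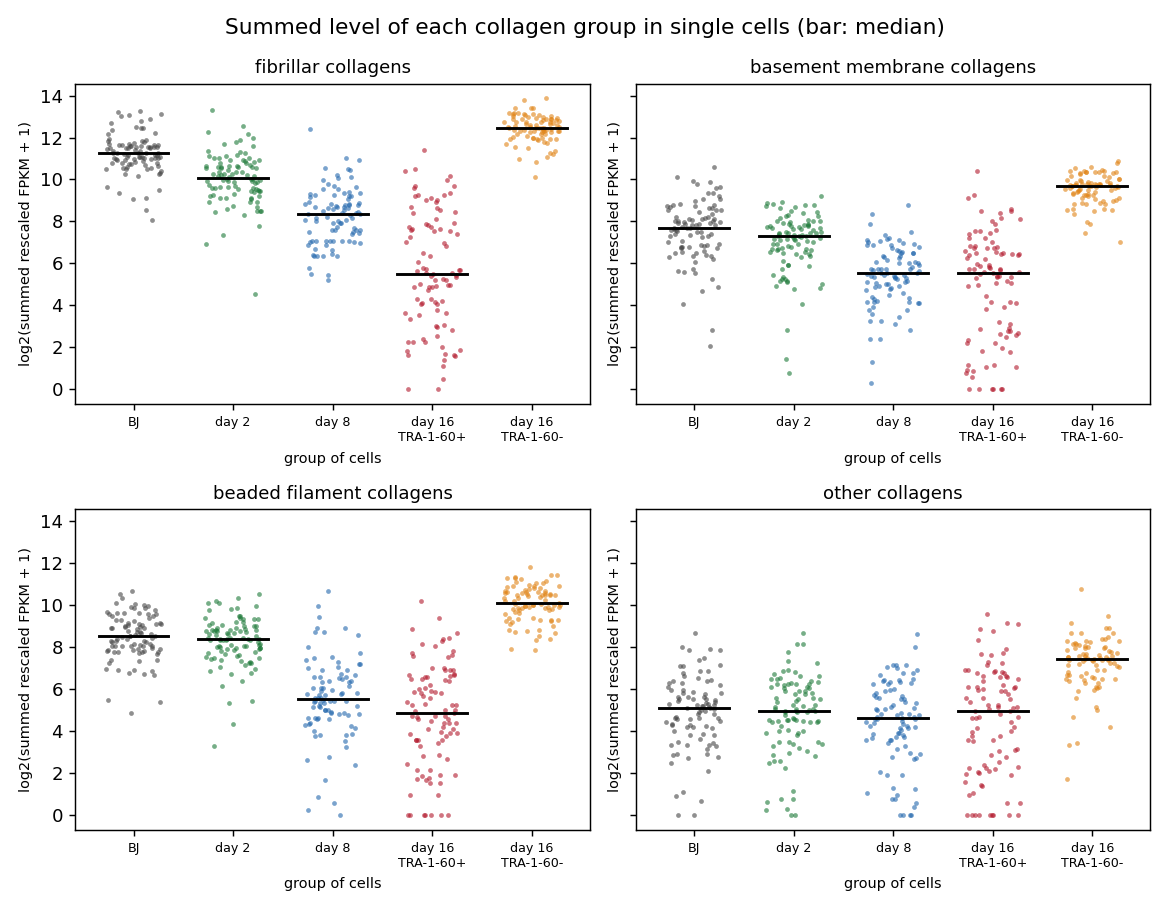
Summed level of each collagen group in every kept cell, as log2(summed rescaled FPKM + 1) on the vertical axis, by group of cells, with 1 point per cell and a bar at the median. Fibrillar sums in the positive fraction spread from 0 to 2690.5, and 91 of its 95 cells lie below the lowest negative cell at 1123.

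Counted chain by chain, more chains were lower between day 2 and day 8 than between BJ and day 2. On day 2 against BJ, 6 of 23 measured chains were lower and 1 higher at 2-fold or more, beside 12.1% and 12.2% of all measured genes. The 6 were COL1A1, COL1A2, COL6A2, COL13A1, COL16A1 and COL18A1, and the chain called higher was COL9A3. On day 8 against day 2, 14 of 26 measured chains were lower and 3 higher, beside 12.5% and 13% of all genes, which are shares of 53.8% and 11.5% of the chains. The 3 were COL14A1, COL17A1 and COL21A1. The median log2 ratio of the chains was -0.47 on day 2 and -1.22 on day 8, where that of all genes was -0.02 and 0.06.

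The negative fraction of day 16 had more of most chains. Against day 8, 2 of 30 measured chains were lower and 25 higher, beside 10.6% and 28.4% of all genes, and the 2 lower chains were COL9A3 and COL17A1. In the positive fraction against day 8, 8 of 27 measured chains were lower and 7 higher, beside 11.6% and 30.3% of all genes. The share of chains that were higher there, 25.9%, is near that of all genes and is no result about collagens. Set directly against the negative fraction, 20 of 30 measured chains were lower and 6 higher in the positive fraction, beside 21.4% and 24.8% of all genes, and again the higher share of 20% is near the background. Among cells with at least 4000 detected genes, 20 chains were lower and 5 higher between the fractions. In the negative fraction against BJ, 0 of 26 measured chains were lower and 18 higher, beside 13% and 31.4% of all genes. The chains' median log2 ratios in these comparisons were 2.74, 0.22, -2.60 and 1.46, and those of all genes 0.49, 0.49, 0.06 and 0.51. These comparisons share the day 8 and negative cells, so each is read by its own values.

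Scaling each cell by 25 housekeeping genes in place of its total moved the median log2 ratio of all genes by 0.90 for the positive fraction against day 8, by 0.98 against the negative fraction, by -0.45 for day 8 against day 2, by 0.13 for the negative fraction against day 8 and by -0.39 against BJ. The calls of all genes then became 7.06% lower and 49.8% higher, 14.2% lower and 42.1% higher, 26.4% lower and 9.63% higher, 9.99% lower and 33.3% higher and 21.3% lower and 23.4% higher, in the same order. Relative to all genes the collagen median went from -2.66 to -1.88 for the positive against the negative fraction and from -1.28 to -1.29 for day 8 against day 2. For day 2 against BJ it was -0.46 as reported, 0.05 with housekeeping scaling and -0.14 with FPKM as deposited, so the small difference of day 2 has no stable direction over the family. FPKM as deposited moved the median of all genes by 0.19 on day 2, -0.18 on day 8, -0.26 in the negative and -0.16 in the positive fraction against day 8, 0.13 between the fractions and -0.27 in the negative fraction against BJ. The calls of all genes then became 11% lower and 20.9% higher, 18.7% lower and 11.2% higher, 13.5% lower and 19.3% higher, 14.2% lower and 26.8% higher, 19.5% lower and 27.4% higher and 16.8% lower and 23.5% higher, in that order. Chains called lower on day 8 against day 2 numbered 22 with housekeeping scaling and 23 with FPKM as deposited.

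**Figure D3:**
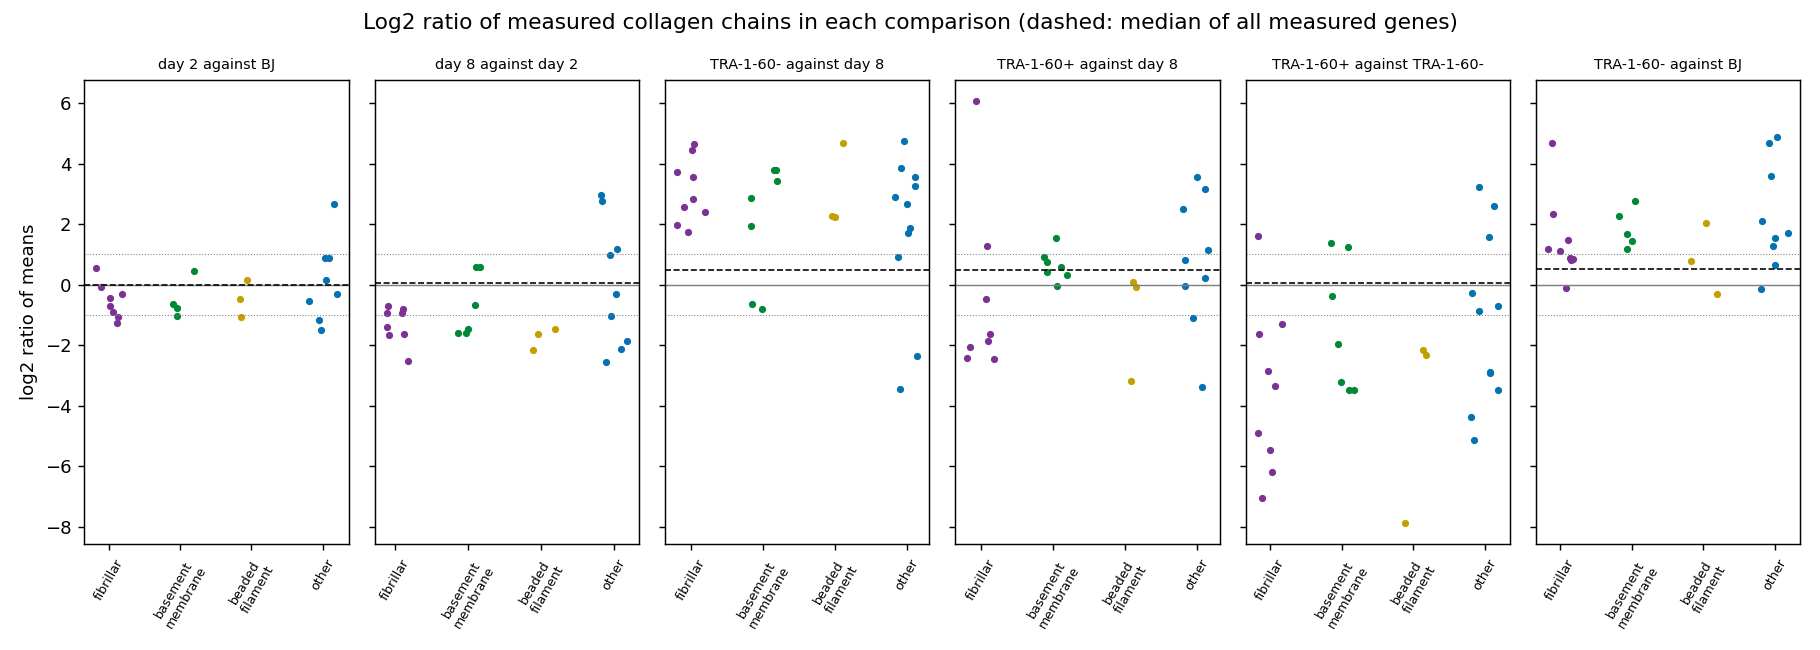
Log2 ratio of means (vertical axis) of each measured collagen chain in the 6 comparisons (panels), by collagen group, with 1 point per chain, dotted lines at 2-fold and a dashed line at the median of all measured genes. In the negative fraction against day 8 the points lie mostly above 1 (25 of 30 called higher), and COL6A3 and COL1A1 are the lowest points of the positive against the negative fraction, at -7.87 and -7.05.

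Mean levels of the type I and III chains, COL5A1 and COL5A2 were lower on day 8 than in BJ, lowest in the positive fraction and highest in the negative fraction, while COL2A1 was near 0 until day 8 and highest in the positive fraction. Of 9 measured fibrillar chains in the negative fraction against day 8 all 9 were called higher, beside 28.4% of all genes. Of 8 measured in the positive fraction against day 8, 5 were lower and 2 higher, beside 11.6% and 30.3% of all genes, so the higher share is near the background.

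COL1A1 encodes the main chain of type I collagen, the chief fibre of skin and bone. Its lowest, median and highest cells were at 19.2, 443 and 3304 in BJ and at 2.66, 188 and 2572 on day 2. On day 8 they were at 0, 7.74 and 919, in the positive fraction at 0, 0 and 218 and in the negative fraction at 65.3, 1105 and 4019. The highest positive cell lay inside the range of every other group, while most positive cells had no COL1A1. It was detected in all cells of BJ, day 2 and the negative fraction, in 68 of 92 cells (73.9%, 63.7 to 82.5%) on day 8 and in 24 of 95 cells (25.3%, 16.9 to 35.2%) of the positive fraction. Means were 635 in BJ, 264 and 45.6 on days 2 and 8, 7.75 in positive and 1162 in negative cells, which gave log2 ratios of -1.26 for day 2 against BJ, -2.51 for day 8 against day 2, 4.64 for the negative fraction against day 8 and 0.87 against BJ. With housekeeping scaling the first of these was -0.88, under the 2-fold line.

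COL1A2 had the highest mean of the fibre-forming type I, III and V chains in every group, with 1917 in BJ, 907 and 285 on days 2 and 8, 76.8 in positive and 3401 in negative cells. Its cells ran from 0 to 4006 (median 159) on day 8, from 0 to 1204 (median 2.61) in the positive fraction and from 250.4 to 8246 (median 3355) in the negative fraction. The positive cells overlapped with all other groups at their upper end, and 57 of 95 cells (60%, 49.4 to 69.9%) had the chain. The log2 ratio of the positive fraction to day 8 was -1.88, and -0.37 with housekeeping scaling, which ends the call. On day 2 against BJ it was -1.08, or -0.80 with that scaling.

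Of the 2 chains of type I collagen, COL1A1 was missing from more cells on day 8 and in the positive fraction than COL1A2. Few cells had COL1A1 without COL1A2. Both were detected in all cells of BJ, day 2 and the negative fraction. On day 8, 68 of 92 cells had both and 22 had COL1A2 without COL1A1, while 0 had COL1A1 alone and 2 had neither. Of 95 positive cells 19 had both, 38 COL1A2 alone, 5 COL1A1 alone and 33 neither. The ratio of the mean of COL1A1 to that of COL1A2 was 0.331 in BJ, 0.291 on day 2, 0.16 on day 8, 0.101 in positive and 0.342 in negative cells. COL1A1 had the lower mean of the pair in every group, and the part of the detection limit in these counts was not tested.

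COL3A1 encodes type III collagen, which forms mixed fibres with type I in skin and vessels. Its means were 205 in BJ, 126 and 76.4 on days 2 and 8, 13.2 in positive and 1029 in negative cells. In BJ its cells ran from 3.13 to 1626 (median 110.3), on day 8 from 0 to 478 (median 53.1) and in the negative fraction from 130.1 to 2582 (median 932). The ranges overlap, with day 8 reaching below the BJ cells and the negative fraction above them. In the positive fraction COL3A1 was present in 8 of 95 cells (8.42%, 3.71 to 15.9%). The highest of these cells, at 693, supplied 55.3% of the fraction's total, and the mean without it was 5.96. Unlike COL1A1, the chain was called higher in the negative fraction against BJ, with a log2 ratio of 2.32, and it stayed under the 2-fold line on day 2 (-0.70) and on day 8 against day 2 (-0.72, or -2.25 with housekeeping scaling).

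Type V chains help to set the width of fibres. COL5A1 had means of 78.2 in BJ, 62.6 and 23 on days 2 and 8, 4.73 in positive and 169 in negative cells, and COL5A2 of 84.9 in BJ, 79.5 and 45 on days 2 and 8, 31.9 in positive and 239.9 in negative cells. COL5A1 ran from 0 to 174 (median 13.8) on day 8 and from 0 to 98.5 (median 0) in the positive fraction, and COL5A2 from 0 to 238 (median 33.8) and 0 to 268 (median 2.33) in the same groups. In the positive fraction COL5A1 was found in 30 of 95 cells (31.6%, 22.4 to 41.9%) and COL5A2 in 52 of 95 cells (54.7%, 44.2 to 65%). On day 8 they were in 80 and 89 of 92 cells. On day 8 against day 2 COL5A2 was at -0.81, or -2.72 with housekeeping scaling, which passes the line. The log2 ratio of the positive fraction to day 8 was -2.07 for COL5A1 and -0.48 for COL5A2. The differences of mean log2(level + 1) lay closer, at -2.52 and -2.25, so the 2 chains parted mainly in the ratio of means. In the negative fraction both were in all 85 cells, at log2 ratios to BJ of 1.10 and 1.49. That of COL5A1 was 0.61 with housekeeping scaling, and without the cell filter they were 0.94 and 0.59, all under the 2-fold line.

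COL11A1, a minor chain that sits in the core of fibres, averaged 24.4 in BJ, 12.5 and 6.0 on days 2 and 8, 1.27 in positive and 22.4 in negative cells. The chain was detected in 75 of 92 cells (81.5%, 72.1 to 88.9%) in BJ, 44 of 96 cells (45.8%, 35.6 to 56.3%) on day 2, 28 of 92 cells (30.4%, 21.3 to 40.9%) on day 8, 4 of 95 positive cells (4.21%, 1.16 to 10.4%) and 50 of 85 negative cells (58.8%, 47.6 to 69.4%). Its highest cells were at 188 in BJ, 65.1 in positive and 111 in negative cells, with the lowest cell at 0 in every group. The negative fraction and BJ were at a log2 ratio of -0.12, so this chain was not above its BJ level there. With housekeeping scaling COL11A1 passed the 2-fold line on day 2 against BJ, at -1.18 in place of -0.91, and on day 8 against day 2, at -1.52 in place of -0.95.

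COL2A1, the chain of cartilage collagen, was close to absent until day 8 and present on day 16. In BJ it was detected in 0 of 92 cells, which allows a share of up to 3.26%. It was in 3 of 96 cells (3.12%, 0.649 to 8.86%) on day 2 and in 3 of 92 cells (3.26%, 0.678 to 9.23%) on day 8. In the positive fraction it was found in 46 of 95 cells (48.4%, 38 to 58.9%), with lowest, median and highest cells at 0, 0.848 and 1144, and in the negative fraction in 24 of 85 cells (28.2%, 19 to 39%), at 0, 0 and 442. Both fractions held cells with none and cells above 400, so their ranges overlap. Means were 0.0144 in BJ, 0.0643 and 0.168 on days 2 and 8, 77.7 in positive and 24.8 in negative cells, at a log2 ratio of 6.07 for the positive fraction against day 8, 4.47 for the negative fraction against day 8 and 1.61 between the fractions.

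For NANOG and LUM, cells with COL2A1 resembled their own fraction. Of the 46 positive cells with COL2A1, 38 had the pluripotency factor NANOG, 13 had SOX9, the transcription factor of cartilage cells, and 2 had the fibroblast proteoglycan LUM. Of the 24 negative cells with COL2A1, 1 had NANOG, 3 had SOX9 and 24 had LUM. Over all cells NANOG was in 80 of 95 positive and 4 of 85 negative cells, LUM in 3 and 84 and SOX9 in 17 and 14. NANOG and LUM thus set the whole fractions apart and not the COL2A1 cells. Of the 17 positive cells with SOX9, 13 had COL2A1, and of the 14 negative ones, 3 had it. Pearson's r of log2(level + 1) for COL2A1 and SOX9 was 0.36 in positive and -0.14 in negative cells, with no test. Of 9 cartilage and bone markers, 3 had a mean of 1 or more in positive and 5 in negative cells. Their summed level ran from 0 to 169.6 in BJ, 0 to 289.6 on day 2, 0 to 529 on day 8, 0 to 263 in positive and 0 to 2625 in negative cells. ACAN, MATN1, SP7 and IBSP, defining genes of cartilage and bone, were listed at 0 in every negative cell. COMP, a protein of cartilage and tendon, carried most of the sum in negative cells, with a mean of 411. MATN3, of the same list, was highest in the positive fraction, as COL2A1 was. It averaged 1.88 in BJ, 0.385 and 1.38 on days 2 and 8, 12 in positive and 3.94 in negative cells. It was found in 38.9% of positive cells and called higher there than on day 8 and in the negative fraction. The part of cartilage or bone cells in COL2A1 was not tested.

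COL27A1, a fibrillar chain of cartilage and other tissues, averaged 4.69 in BJ, 3.17 and 1.19 on days 2 and 8, 4.27 in positive and 12 in negative cells. It was in 28 of 92 cells (30.4%, 21.3 to 40.9%) on day 8, 30 of 95 positive cells (31.6%, 22.4 to 41.9%) and 60 of 85 negative cells (70.6%, 59.7 to 80%), with highest cells at 25.6, 75.8 and 67.3 and lowest cells at 0. All groups overlapped. The log2 ratio between the fractions, -1.30, was -0.85 with housekeeping scaling and -0.85 among cells with at least 4000 genes. Against BJ the negative fraction was at 1.19, or 0.92 with housekeeping scaling. COL24A1, a fibrillar chain known from bone, peaked in the negative fraction at 4.34. COL5A3 stayed under 1 everywhere, and COL11A2 was listed at 0 in every kept cell except those of day 2, where its highest cell was at 0.37.

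COL11A2 lies on chromosome 6 between HLA-DPB1 and RXRB. Of its 40 nearest RefSeq neighbours in the tables, 6 reached a mean of 1 in any group, against 16 to 35 (median 30) for the other 43 chains. The values near 0 are therefore not read as absence of the message.

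**Figure D4:**
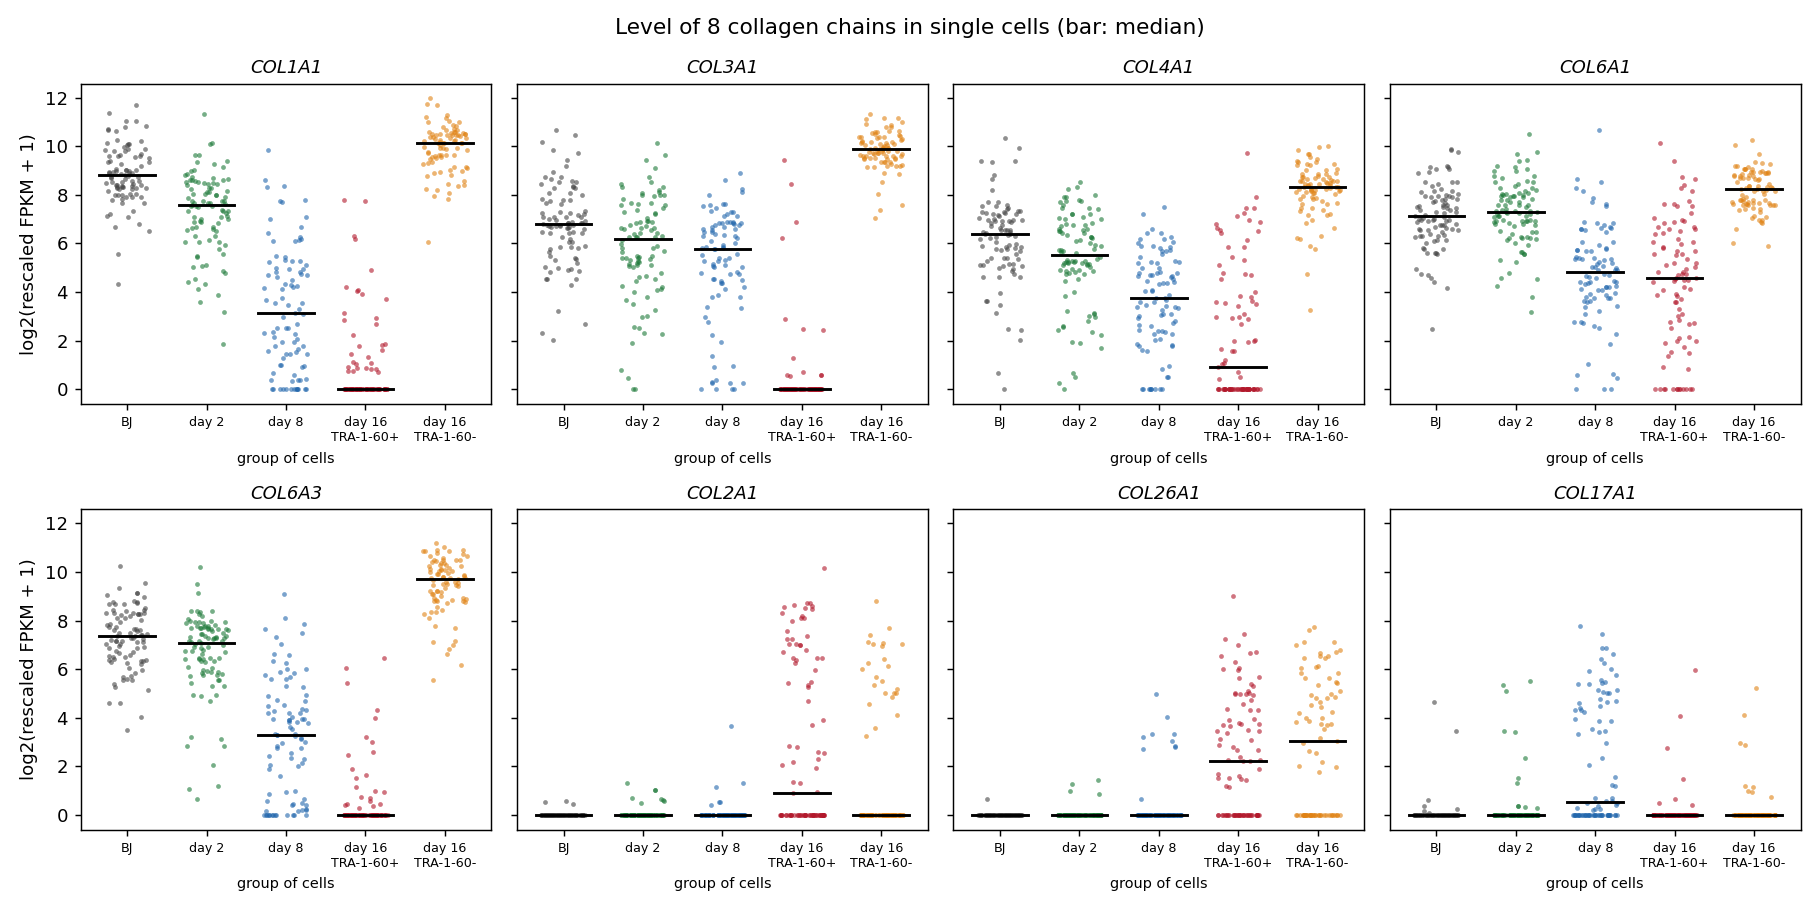
Level of 8 collagen chains in every kept cell as log2(rescaled FPKM + 1) (vertical axis) by group of cells, with 1 point per cell and a bar at the median. COL1A1, COL3A1 and COL6A3 sit at a median of 0 in the positive fraction, where COL6A1 keeps a median of 22.7, while COL2A1 and COL26A1 appear on day 16 and COL17A1 on day 8.

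COL4A1, COL4A2, COL7A1 and COL18A1 had lower means on day 8 than in BJ and their highest means in the negative fraction, while COL4A3, COL4A4 and COL4A5 were higher on day 8 than in BJ and low throughout. Of 7 measured basement membrane chains in the positive fraction, 0 were called lower than on day 8 and 1 higher (COL4A5), beside 11.6% and 30.3% of all genes, and with 7 chains a count of 0 lower is near the background. Against the positive fraction, the negative fraction had more of 4 of the 7, COL4A1, COL4A2, COL7A1 and COL18A1, and less of 2, beside 21.4% and 24.8% of all genes.

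COL4A1 and COL4A2 encode the chains of the common type IV network and share the head-to-head promoter printed above. Mean levels of COL4A1 were 133 in BJ, 76.6 and 24.8 on days 2 and 8, 31.5 in positive and 359.6 in negative cells, and those of COL4A2 111 in BJ, 70.4 and 24.9 on days 2 and 8, 37.3 in positive and 356 in negative cells. The ratio of the means stayed between 0.845 in the positive fraction and 1.2 in BJ. Their log2 ratios also lay close, at -1.59 and -1.46 for day 8 against day 2, 3.80 and 3.78 for the negative fraction against day 8 and -3.47 and -3.22 for the positive against the negative fraction.

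In BJ, cells ran from 0 to 1286 (median 83) for COL4A1 and in the negative fraction from 8.64 to 1029 (median 322). On day 8 they ran from 0 to 182 (median 12.4) and in the positive fraction from 0 to 840.2 (median 0.867). On the reported scale the day 8 and positive means were alike but the cells were not. On day 8, 79 of 92 cells (85.9%, 77 to 92.3%) had COL4A1. In the positive fraction 47 of 95 cells (49.5%, 39.1 to 59.9%) had it, and the highest cell gave 28% of the total. The log2 ratio of means was 0.33, while the difference of mean log2(level + 1) was -1.40. The likeness of the means rests on the scaling. With housekeeping scaling the COL4A1 means were 17.8 on day 8 and 84 in the positive fraction, and those of COL4A2 19 and 72.9. Against BJ the negative fraction was at 1.43 for COL4A1, or 0.85 with housekeeping scaling. COL4A2 was in 81 of 92 cells (88%, 79.6 to 93.9%) and 64 of 95 cells (67.4%, 57 to 76.6%) in the same order.

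Within a group, the levels of the 2 chains varied together across cells to a differing extent. Pearson's r of log2(level + 1) was 0.41 over 92 BJ cells, 0.36 over 96 cells of day 2, 0.43 over 92 of day 8, 0.63 over 95 positive and 0.64 over 85 negative cells. For COL1A1 and COL1A2, on different chromosomes, it was 0.79, 0.81, 0.71, 0.40 and 0.79. Both genes of a pair come from the same library in each cell and share its depth, so these values describe the cells and carry no test. The plot of partner chains shows the pairs cell by cell.

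**Figure D5:**
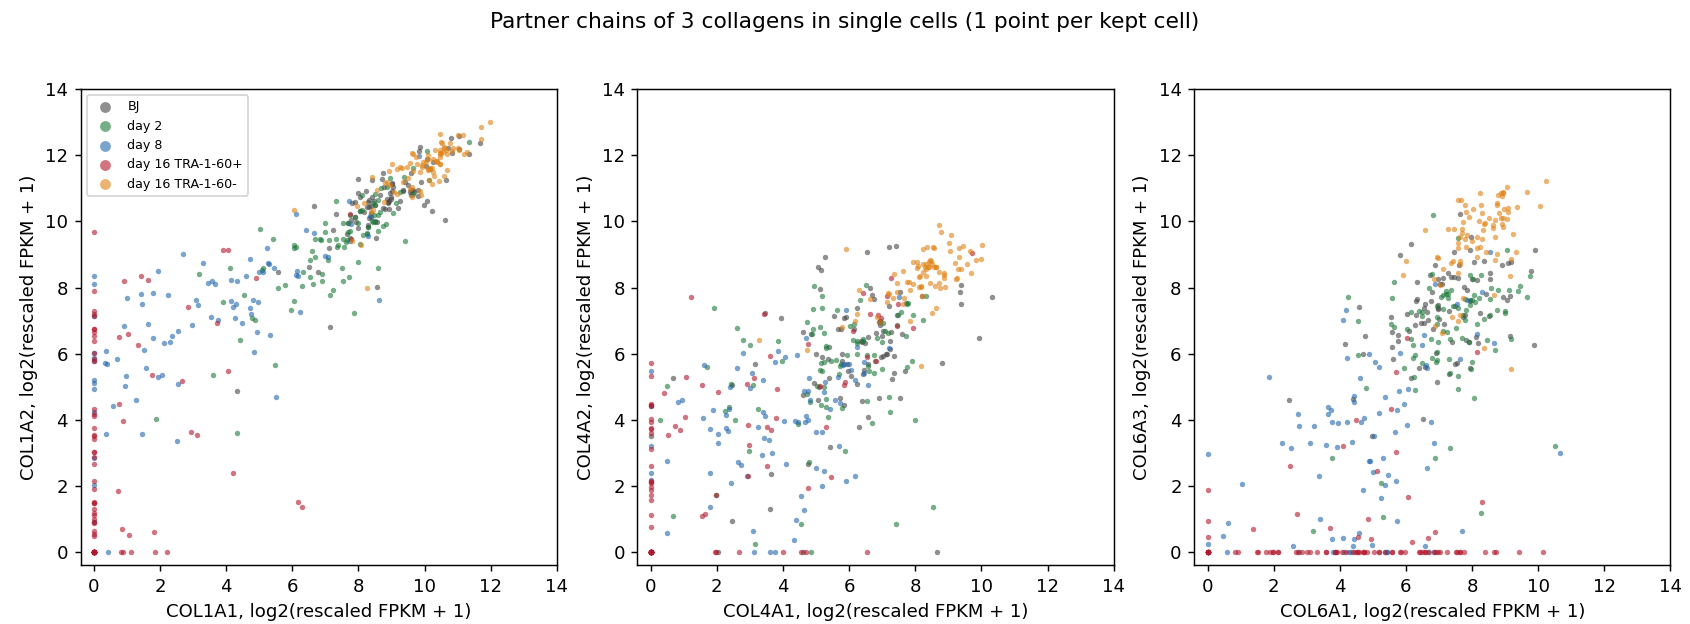
Levels of partner chains in single cells as log2(rescaled FPKM + 1), COL1A1 against COL1A2, COL4A1 against COL4A2 and COL6A1 against COL6A3, with 1 point per kept cell coloured by group. Red points on the lower edge of the right panel are positive cells with COL6A1 and little or no COL6A3 (68 of 95 had COL6A1 without detected COL6A3).

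COL7A1, the chain of the anchoring fibrils that tie epithelium to dermis, averaged 10 in BJ, 14 and 3.93 on days 2 and 8, 3.78 in positive and 52 in negative cells. It was present in 67 of 92 cells (72.8%, 62.6 to 81.6%) in BJ, in 36 of 92 cells (39.1%, 29.1 to 49.9%) on day 8, in 16 of 95 positive cells (16.8%, 9.94 to 25.9%) and in 81 of 85 negative cells (95.3%, 88.4 to 98.7%). Highest cells were at 96.5, 71.9, 98.4 and 191 in that order, and the lowest at 0, so all ranges overlap. Against BJ the negative fraction had a log2 ratio of 2.27.

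COL18A1, which carries endostatin at its end, had means of 25.8 in BJ, 12.1 and 7.23 on days 2 and 8, 14.4 in positive and 59.6 in negative cells. Cells ran from 0 to 439.5 (median 3.8) in BJ, 0 to 62.7 (median 0.788) on day 8, 0 to 118 (median 0.944) in positive and 0 to 341 (median 38.6) in negative cells. It was detected on day 8 in 45 of 92 cells (48.9%, 38.3 to 59.6%), in the positive fraction in 47 of 95 cells (49.5%, 39.1 to 59.9%) and in 71 of 85 cells (83.5%, 73.9 to 90.7%) of the negative fraction. Its call on day 2 against BJ (-1.04) was -0.89 with FPKM as deposited and -0.89 without the highest cell. In the positive fraction against day 8 its 0.90 became 1.62 with housekeeping scaling, past the line. Its call in the negative fraction against BJ (1.18) was 0.78 with that scaling and 0.90 without the cell filter.

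The tissue-restricted chains of type IV collagen were low. COL4A5 peaked in the negative fraction at 5.83, and was at 4.22 in the positive fraction. COL4A3 and COL4A4, which form the kidney filter's network together with COL4A5, peaked in the positive fraction at 1.7 and 3.22, where 2 cells had both, 11 COL4A3 alone and 8 COL4A4 alone. A single positive cell gave 55.2% of the COL4A4 total, with a mean of 1.46 without it, and the COL4A5 mean of positive cells was 2.68 without its highest cell. COL4A3 and COL4A4 are also a head-to-head pair, with starts 419 bases apart. COL4A6 and COL15A1 stayed under 1.

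The 3 expressed chains of type VI collagen, which assemble together into beaded filaments, parted company in the positive fraction. COL6A3 was nearly absent there, while COL6A1 was found in most cells. On day 8 against day 2 all 3 were called lower, beside 12.5% of all genes. In the negative fraction against day 8 all 3 were called higher, beside 28.4% of all genes.

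COL6A3 averaged 216 in BJ, 156 and 33.7 on days 2 and 8, 2.81 in positive and 888 in negative cells. Its lowest, median and highest cells were at 10.4, 164 and 1194 in BJ, 0, 8.87 and 538 on day 8, 0, 0 and 87.8 in positive and 45.6, 846 and 2366 in negative cells. Positive and negative cells overlapped only from 45.6 to 87.8. The chain was detected in 65 of 92 cells (70.7%, 60.2 to 79.7%) on day 8 and in 13 of 95 cells (13.7%, 7.49 to 22.3%) of the positive fraction, and in every cell of BJ and the negative fraction. Its log2 ratio between positive and negative fraction, -7.87, was the lowest of any chain, and it was 2.03 for the negative fraction against BJ.

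COL6A1 averaged 201 in BJ, 223 and 71.8 on days 2 and 8, 76.3 in positive and 342 in negative cells. On day 2 its cells ran from 8.17 to 1462 (median 158), on day 8 from 0 to 1625 (median 27.1), in the positive fraction from 0 to 1120.4 (median 22.7) and in the negative fraction from 58.6 to 1215 (median 304). Day 8 and the positive fraction covered similar ranges, and 80 of 95 cells (84.2%, 75.3 to 90.9%) of the positive fraction had the chain. The log2 ratio of the positive fraction to day 8 was 0.09, or 1.26 with housekeeping scaling, which is past the 2-fold line. Between the fractions it was -2.15, or -0.75 with that scaling, which is not. On day 8 the highest cell, at 1625, gave 24.6% of the total.

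COL6A2 averaged 44.7 in BJ, 20.7 and 6.78 on days 2 and 8, 6.35 in positive and 36.1 in negative cells, with cells from 0 to 351 (median 22.5) in BJ, 0 to 131 (median 0) in positive and 0 to 207 (median 24.2) in negative cells. Its call on day 2 against BJ (-1.08) was -0.97 with FPKM as deposited. It was detected in 32 of 92 cells (34.8%, 25.1 to 45.4%) on day 8 and in 32 of 95 cells (33.7%, 24.3 to 44.1%) of the positive fraction. The ratio of the mean of COL6A1 to that of COL6A3 was 0.928 in BJ, 1.43 on day 2, 2.13 on day 8, 27.1 in positive and 0.385 in negative cells. Such a ratio shows unequal change of the 2 chains and not which of them moved. Of the positive cells 12 had COL6A1 and COL6A3, and 68 had COL6A1 without COL6A3. COL6A1 and COL6A2 were found together in 28 positive cells. COL6A5 and COL6A6 stayed under 1.

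The other collagens were low in sum and the most varied in course. Among fibril-associated chains, which decorate the surface of fibres, COL12A1 and COL16A1 followed the fibrillar chains, while COL14A1 and COL21A1 were near 0 in BJ and present from day 8.

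COL12A1 averaged 13.9 in BJ, 15.6 and 2.78 on days 2 and 8, 0.757 in positive and 35.3 in negative cells, and COL16A1 15.9 in BJ, 6.6 and 0.298 on days 2 and 8, 0.378 in positive and 14.2 in negative cells. COL12A1 was detected in 82 of 92 cells (89.1%, 80.9 to 94.7%) in BJ, 7 of 95 positive cells (7.37%, 3.01 to 14.6%) and 77 of 85 negative cells (90.6%, 82.3 to 95.8%), with highest cells at 206, 27.9 and 175. COL16A1 was in 67 of 92 cells (72.8%, 62.6 to 81.6%) in BJ, 4 of 92 cells (4.35%, 1.2 to 10.8%) on day 8, 6 of 95 positive cells (6.32%, 2.35 to 13.2%) and 50 of 85 negative cells (58.8%, 47.6 to 69.4%), with medians of 5.27, 0, 0 and 2.3 and highest cells at 185, 12.2, 21.2 and 135. Both chains were thus scarce in the positive fraction, and COL16A1 had not passed its BJ level in the negative fraction (log2 ratio -0.15), where COL12A1 had (1.29, or 0.72 with housekeeping scaling and 0.94 without the cell filter). COL16A1 on day 2 against BJ was at -1.16 but at 0.61 with FPKM as deposited, so its direction there depends on the rescaling.

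COL14A1 was listed at 0 in every cell of day 2 and was detected in 19 of 92 cells (20.7%, 12.9 to 30.4%) on day 8, 26 of 95 positive cells (27.4%, 18.7 to 37.5%) and 26 of 85 negative cells (30.6%, 21 to 41.5%). Its means were 1.27, 11.9 and 3.32 in those groups and its highest cells 15.8, 427 and 57.1, while in BJ its mean was 0.0022. The intervals of the shares in the fractions overlap. The log2 ratio between the fractions, 1.58, was 0.19 as a difference of mean log2 values, and 1 positive cell gave 37.6% of that fraction's total. The ratio of the positive fraction to day 8, 2.51, was 0.60 on that scale.

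COL21A1 averaged 0.031 in BJ, 0.0583 and 6.24 on days 2 and 8, 15.1 in positive and 25.2 in negative cells. It was found in 2 of 96 cells (2.08%, 0.253 to 7.32%) on day 2, 20 of 92 cells (21.7%, 13.8 to 31.6%) on day 8, 22 of 95 positive cells (23.2%, 15.1 to 32.9%) and 41 of 85 negative cells (48.2%, 37.3 to 59.3%). The median cell was at 0 in every group, and the highest were at 103, 468 and 320.4 in the last 3 groups. Its call in the positive fraction against day 8 (1.15) did not hold without the highest cell (0.87) or with FPKM as deposited (0.72). COL9A3, a cartilage chain, peaked on day 2 at 5.35, was at 4.18 on day 8 and 5.03 in the positive fraction, and was listed at 0 in every negative cell. Without its highest cell the day 8 mean of COL9A3 was 1.82.

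Short chain collagens form sheet-like lattices. COL8A1, known from vessel walls and the cornea, averaged 16.5 in BJ, 13.1 and 5.92 on days 2 and 8, 5.7 in positive and 50.1 in negative cells, and its partner COL8A2 2.55 in BJ, 5.61 and 0.826 on days 2 and 8, 0.548 in positive and 10.6 in negative cells. COL8A1 was in 57 of 92 cells (62%, 51.2 to 71.9%) in BJ, 18 of 95 positive cells (18.9%, 11.6 to 28.3%) and 67 of 85 negative cells (78.8%, 68.6 to 86.9%), with highest cells at 407, 93.5 and 347. COL8A2 was in 28 of 96 cells (29.2%, 20.3 to 39.3%) on day 2, 10 of 92 cells (10.9%, 5.34 to 19.1%) on day 8 and 26 of 85 cells (30.6%, 21 to 41.5%) in the negative fraction, with a median of 0 in every group and highest cells at 117, 20.7 and 121. The call of COL8A1 on day 8 against day 2 (-1.03) was -0.90 without the highest cell. Most negative cells with COL8A2 had COL8A1 as well, 24 of 26. On the scale of mean log2 values the gains of COL8A2 in the negative fraction were 0.98 against day 8 and 0.59 against BJ, under the 2-fold line, where the ratios of means were 2.66 and 1.70.

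COL10A1, known from the enlarged cartilage cells of growing bone, averaged 1.91 in BJ, 0.985 and 0.297 on days 2 and 8, 0.00969 in positive and 34.1 in negative cells. It was detected in 9 of 92 cells (9.78%, 4.57 to 17.8%) in BJ and 33 of 85 cells (38.8%, 28.4 to 50%) in the negative fraction, while positive cells had it in 0 of 95 cells, which allows a share of up to 3.16%. The highest negative cell, at 1558, gave 53.7% of the fraction's total, the next was at 147, and the mean without the highest was 16.

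Transmembrane collagens span the cell surface. COL17A1, part of the hemidesmosome that fixes epithelial cells to the basement membrane, was the sole chain with its highest mean on day 8. Means were 0.379 in BJ, 1.53 and 18.8 on days 2 and 8, 0.911 in positive and 0.834 in negative cells. It was in 2 of 92 cells (2.17%, 0.264 to 7.63%) in BJ, 8 of 96 cells (8.33%, 3.67 to 15.8%) on day 2, 42 of 92 cells (45.7%, 35.2 to 56.4%) on day 8, 4 of 95 positive cells (4.21%, 1.16 to 10.4%) and 6 of 85 negative cells (7.06%, 2.63 to 14.7%). Day 8 cells ran from 0 to 216 (median 0.454), and the highest cells elsewhere were at 23.8, 44.7, 62 and 36.8, so the groups overlap below these values. The log2 ratio was 2.97 for day 8 against day 2, -3.37 for the positive and -3.43 for the negative fraction against day 8.

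The summed level of epithelial markers was also highest on day 8, but the markers differed. KRT18, KRT8, KRT19 and CLDN4 had their highest means on day 8, at 3203, 1230, 166 and 20.1. CDH1, EPCAM and ESRP1 had theirs in the positive fraction, at 37.6, 64.3 and 101, against 3.5, 8.41 and 0.586 on day 8. GRHL2 peaked on day 2, at 1.22. Of 8 epithelial markers, 6 had a mean of 1 or more on day 8, 3 in BJ, 5 on day 2, 6 in positive and 4 in negative cells. Their summed level ran from 0 to 2327 in BJ, 5.6 to 12140.1 on day 2, 94.3 to 16479 on day 8, 16.9 to 9730.0 in positive and 0 to 5501 in negative cells. KRT8, a keratin of simple epithelia, was in all 42 day 8 cells with COL17A1 and in 48 without it, so it was in 90 of 92 cells of that day. KRT5, the keratin of basal skin cells, was in 3 of the 42, and COL1A1 in 35. Of 8 keratinocyte markers 3 reached a mean of 1 on day 8, with summed levels of 0 to 281 in BJ, 0 to 2139 on day 2, 0 to 361 on day 8, 0 to 118 in positive and 0 to 529.8 in negative cells. The 3 were KRT14, KRT10 and ITGB4, with means of 81.6, 18.2 and 0.345 on day 2 and 9.96, 9.18 and 5.18 on day 8. On day 8 against day 2 KRT14 was called lower and ITGB4 higher. ITGB4 was in 50% of day 8 cells and averaged 0.108 in BJ, 0.593 in positive and 8.45 in negative cells. TP63 and IVL, of basal and upper skin layers, were listed at 0 in every cell of day 8. COL7A1, which lies below hemidesmosomes in skin, was in 19 of the 42 COL17A1 cells and 17 of the 50 others. The part of epithelial cells in the COL17A1 level was not tested.

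COL25A1, a transmembrane chain known from neurons, peaked in the positive fraction at 8.39, where 16 of 95 cells (16.8%, 9.94 to 25.9%) had it. The highest of these, at 559.9, gave 70.2% of the total and the mean without it was 2.53. COL25A1 was listed at 0 in every cell of BJ and of the negative fraction. COL13A1 peaked in the negative fraction at 4.79, and COL23A1 stayed under 1.

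COL26A1, a secreted chain, was near 0 up to day 2 and reached similar levels in both fractions of day 16. Means were 0.00608 in BJ, 0.052 and 1.06 on days 2 and 8, 23.5 in positive and 28.8 in negative cells. It was in 9 of 92 cells (9.78%, 4.57 to 17.8%) on day 8, 58 of 95 positive cells (61.1%, 50.5 to 70.9%) and 50 of 85 negative cells (58.8%, 47.6 to 69.4%). Positive cells ran from 0 to 510.0 (median 3.7) and negative cells from 0 to 215 (median 7.29). The negative cells lay within the range of the positive cells, which reached higher, and the log2 ratio was -0.28. Against day 8 the log2 ratio was 3.57 for the positive and 3.85 for the negative fraction. NANOG was in 52 of the 58 positive and 3 of the 50 negative cells with COL26A1, and COL1A2 in 35 and 50. COL2A1 was found in 33 of those positive and 17 of those negative cells.

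COL9A1, COL9A2, COL19A1, COL20A1, COL22A1 and COL28A1 stayed under a mean of 1 in every group. With COL4A6, COL5A3, COL6A5, COL6A6, COL11A2, COL15A1 and COL23A1 they are the 13 chains without a described course. Antisense genes of collagen loci were at most at a mean of 0.374, and the tables do not say whether strand was used.

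The sum of the fibroblast markers other than collagens was lowest in the positive fraction, as that of the fibrillar chains was. It took another course elsewhere. Their summed level ran from 1158 to 30768 (median 12442) in BJ, 988 to 39488 (15199) on day 2, 1615 to 44003 (15702) on day 8, 57.3 to 12875 (1619) in positive and 4241 to 15500.0 (9252) in negative cells. On day 8 the median sum was thus above that of BJ and in the negative fraction below both, the reverse of the collagen sum. Member by member, 6 of 16 markers were called lower and 1 higher on day 8 against day 2, beside 12.5% and 13% of all genes. In the positive against the negative fraction 13 of 16 were lower and 0 higher, beside 21.4% and 24.8%. S100A4, a calcium-binding protein, makes up much of the sum, with means of 2975 in BJ, 9844 and 14077 on days 2 and 8, 68.2 in positive and 3135 in negative cells. LUM had 248 in BJ, 117 and 66.3 on days 2 and 8, 0.154 in positive and 999 in negative cells. FAP was listed at 0 in every positive cell. Not every marker was low there. THY1 averaged 265 in BJ, 101 and 150 on days 2 and 8, 351 in positive and 222 in negative cells. PDGFRA averaged 8.81 in BJ, 3.79 and 3.85 on days 2 and 8, 32.9 in positive and 20 in negative cells. Means of FN1 and FBLN1 were 50.1 and 54.3 on day 8 and 97.9 and 103 in positive cells.

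Markers of other cells that make collagen were summed in the same way. The 8 smooth muscle and pericyte markers ran from 20.3 to 12725 (median 2498) in BJ, 1.23 to 8405 (1085) on day 2, 0 to 3073 (149.9) on day 8, 0 to 3617 (97.6) in positive and 0 to 6741 (1208) in negative cells, with 5, 6, 7, 6 and 7 members at a mean of 1 or more and 0 listed at 0. The 8 endothelial markers had 1, 2, 1, 4 and 4 such members, with medians of the sum from 0.462 in BJ to 29.6 in the negative fraction. Of 7 blood cell markers at most 3 reached a mean of 1. The summed 12 pluripotent markers ran from 0 to 295 in BJ, 0 to 38 on day 2, 0 to 1066 on day 8, 46.6 to 15936 in positive and 0 to 499 in negative cells. The part of any of these cells in the collagen values was not tested.

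The machinery that makes and uses collagen was followed by lists of known genes. Among 19 genes of folding and hydroxylation, enzymes and chaperones that modify the chains in the endoplasmic reticulum, the calls at 2-fold were 5 lower and 0 higher of 18 (all genes 12.1% and 12.2%) on day 2 against BJ and 4 lower and 0 higher of 18 (all genes 12.5% and 13%) on day 8 against day 2. Against day 8 they were 1 lower and 11 higher of 19 (all genes 10.6% and 28.4%) in the negative and 2 lower and 3 higher of 17 (all genes 11.6% and 30.3%) in the positive fraction. They came to 14 lower and 1 higher of 19 (all genes 21.4% and 24.8%) in the positive against the negative fraction and to 1 lower and 4 higher of 19 (all genes 13% and 31.4%) in the negative fraction against BJ. Most members were lower in the positive than in the negative fraction. In this list and those that follow, a share at or near that of all genes, given in brackets as lower and higher, is no result about the list. P4HA2, a subunit of prolyl 4-hydroxylase, averaged 148 in BJ, 119 and 47.5 on days 2 and 8, 14.3 in positive and 467 in negative cells. FKBP10, a prolyl isomerase needed for type I collagen, averaged 42 in BJ, 19.8 and 1.22 on days 2 and 8, 5.46 in positive and 24 in negative cells. P3H2, a prolyl 3-hydroxylase, went the other way, with 5.56 in BJ, 2.18 and 4.09 on days 2 and 8, 78.2 in positive and 1.35 in negative cells.

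Of 16 genes of procollagen export and processing, the calls were 1 lower and 1 higher of 10 (all genes 12.1% and 12.2%) on day 2 against BJ and 3 lower and 0 higher of 10 (all genes 12.5% and 13%) on day 8 against day 2. Against day 8 they were 0 lower and 10 higher of 12 (all genes 10.6% and 28.4%) in the negative and 2 lower and 3 higher of 12 (all genes 11.6% and 30.3%) in the positive fraction. They came to 8 lower and 2 higher of 13 (all genes 21.4% and 24.8%) in the positive against the negative fraction and to 0 lower and 5 higher of 12 (all genes 13% and 31.4%) in the negative fraction against BJ. ADAMTS2, which trims the amino end of procollagens, averaged 5.8 in BJ, 8.34 and 2.37 on days 2 and 8, 0.311 in positive and 20.2 in negative cells, and PCOLCE, which enhances trimming of the other end, 444 in BJ, 169 and 141 on days 2 and 8, 66.4 in positive and 617 in negative cells. These followed the fibrillar chains. KLHL12, an adaptor for the large vesicles that carry procollagen, was highest in the positive fraction, with 9.74 in BJ, 8.94 and 3.52 on days 2 and 8, 40 in positive and 14.3 in negative cells.

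Crosslinking enzymes join collagen molecules in the matrix. Of 7 such genes, the calls were 3 lower and 1 higher of 7 (all genes 12.1% and 12.2%) on day 2 against BJ and 4 lower and 0 higher of 7 (all genes 12.5% and 13%) on day 8 against day 2. Against day 8 they were 0 lower and 5 higher of 7 (all genes 10.6% and 28.4%) in the negative and 4 lower and 1 higher of 7 (all genes 11.6% and 30.3%) in the positive fraction. They came to 5 lower and 0 higher of 7 (all genes 21.4% and 24.8%) in the positive against the negative fraction and to 2 lower and 1 higher of 7 (all genes 13% and 31.4%) in the negative fraction against BJ. LOX, which oxidises lysines of fibrillar collagen, averaged 71.2 in BJ, 71.9 and 10.3 on days 2 and 8, 1.58 in positive and 29.4 in negative cells, and LOXL2, a relative active on type IV collagen, 151 in BJ, 63 and 17.6 on days 2 and 8, 8.04 in positive and 28.7 in negative cells. Unlike the type I chains, both stayed below their BJ level in the negative fraction. TGM2, a transglutaminase, averaged 3.81 in BJ, 57.8 and 42.5 on days 2 and 8, 0.905 in positive and 348 in negative cells.

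Collagen receptors pass signals from the matrix to the cell. Of 11 receptor genes, the calls were 3 lower and 0 higher of 7 (all genes 12.1% and 12.2%) on day 2 against BJ and 2 lower and 0 higher of 6 (all genes 12.5% and 13%) on day 8 against day 2. Against day 8 they were 0 lower and 7 higher of 7 (all genes 10.6% and 28.4%) in the negative and 1 lower and 3 higher of 6 (all genes 11.6% and 30.3%) in the positive fraction. They came to 6 lower and 2 higher of 8 (all genes 21.4% and 24.8%) in the positive against the negative fraction and to 1 lower and 5 higher of 8 (all genes 13% and 31.4%) in the negative fraction against BJ. DDR2, a kinase that binds fibrillar collagen, averaged 38.6 in BJ, 13 and 8.9 on days 2 and 8, 1.22 in positive and 35.4 in negative cells, and ITGA11, an integrin chain of fibroblasts, 0.786 in BJ, 1.16 and 0.307 on days 2 and 8, 0.0223 in positive and 12.3 in negative cells. ITGA1, whose integrin prefers type IV collagen, was highest in the positive fraction, with 3.59 in BJ, 1.12 and 1.27 on days 2 and 8, 17.4 in positive and 7.24 in negative cells.

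Basement membrane partners, the laminins and linkers that join type IV collagen, had calls of 1 lower and 3 higher of 9 (all genes 12.1% and 12.2%) on day 2 against BJ and 1 lower and 1 higher of 9 (all genes 12.5% and 13%) on day 8 against day 2. Against day 8 they were 1 lower and 7 higher of 11 (all genes 10.6% and 28.4%) in the negative and 3 lower and 3 higher of 11 (all genes 11.6% and 30.3%) in the positive fraction. They came to 8 lower and 2 higher of 12 (all genes 21.4% and 24.8%) in the positive against the negative fraction and to 0 lower and 9 higher of 12 (all genes 13% and 31.4%) in the negative fraction against BJ. LAMA4 averaged 2.38 in BJ, 33 and 52.2 on days 2 and 8, 16.3 in positive and 76.7 in negative cells, LAMB1 19.1 in BJ, 19 and 30.7 on days 2 and 8, 65.8 in positive and 181 in negative cells and LAMB3 0.257 in BJ, 9.26 and 4.0 on days 2 and 8, 2.78 in positive and 12.3 in negative cells. LAMA4 and LAMB1, laminin chains of mesenchymal and embryonic membranes, were thus higher on day 8 than on day 2, when COL4A1 and COL4A2 were lower. Over these lists the median log2 ratio in the positive against the negative fraction was -1.37 for folding, -1.17 for export, -2.41 for crosslinking, -2.11 for receptors and -1.99 for basement membrane partners, where that of all genes was 0.06.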

How the data were processed

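Single-cell libraries of polyadenylated RNA from 480 cells in 5 groups were analysed, with every cell assigned by its label. The authors deposited FPKM for 27021 genes, with the cells of each group in a table of their own. STAR, Cuffnorm and hg19 are listed in the submitters' processing notes, and versions are not given in the sources used here. Per the labels' protocols, cells were captured on Fluidigm C1 chips and libraries made with Nextera XT. No column was left unused and no cells held identical values. FPKM were rescaled to 1000000 per cell. Cells with at least 2000 detected genes and ACTB or GAPDH were kept, 460 of 480, which left out 4, 0, 4, 1 and 11 cells in the order of the groups. Depth is unknown, because steps left by whole reads stood out in 3 of 224 pairs of cells. Doublets cannot be called from these values. Calls used the ratio of means at a pseudocount of 1, with no test, since no label separates cultures within a group. The scripts were tested on simulated data (Python 3.11.15, pandas 2.3.3, numpy 2.4.6, scipy 1.17.1). The members and lists were chosen with earlier results of these data known. Chains were described in full at a highest mean of 10 or more, with their peak at 1 to 10 and by name below 1, and of each pathway list the 3 genes with the widest range were named. Alternatives covered the scaling, the cell and gene filters, the pseudocount and the highest cell of each gene.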

Additional observations from a re-analysis of the deposited data

How the results depend on the processing

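Of the 12 counts of called chains under 11 alternatives, 111 of 132 values stayed within 1.5 times the reported count, 11 were below and 10 above. The 12 values with no minimum mean were bound to stay, since means under 1 cannot differ 2-fold at a pseudocount of 1. Chains called lower at day 2 against BJ numbered 3 with FPKM as deposited, beside 11% of all genes. Chains called higher in that comparison numbered 6 with FPKM as deposited, 5 with housekeeping scaling and 2 among cells with at least 4000 genes. They numbered 3 with a pseudocount of 0.1, and 0 by mean log2 values or at a minimum mean of 10. Of all genes 20.9%, 16.9%, 10.6%, 16.1%, 3.68% and 10.6% were called higher, in that order. At day 8 against day 2, 23 chains were lower with FPKM as deposited and 22 with housekeeping scaling, beside 18.7% and 26.4% of all genes. There 6 were higher with the small pseudocount but 1 by mean log2 values and 1 at the higher minimum, beside 17.2%, 11.5% and 12.1%. In the negative fraction against day 8 the lower chains numbered 4, 1 and 1 under the same 3 alternatives. In the positive fraction, chains higher than at day 8 numbered 15 with housekeeping scaling, 2 by mean log2 values and 4 at the higher minimum. Chains higher than in the negative fraction numbered 10, 1 and 2. With housekeeping scaling 49.8% and 42.1% of all genes were called higher in the same order, so these counts are not read as gains of collagens. Of 1265 log2 ratios of single chains, 1209 kept their call, 34 lost it, 21 gained it and 1 changed sign, COL16A1 at day 2 against BJ, at 0.61 with FPKM as deposited. Only chains with a mean of 10 or more in the comparison were counted here. The 115 ratios at the higher minimum and the 115 with no minimum could therefore not change and say nothing about stability. Shares of cells moved beyond their intervals in 79 of 120 cases at a detection limit of 10. The causes were not tested. No paired analysis was possible because the numbers in the labels only count cells of a group. Without read counts, a chain at 0 in a cell cannot be told from one below that cell's depth.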

Other observations

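The cells of the positive fraction with most collagen differed in the chains and markers they held. The highest, at a summed level of 3668, held COL1A2 at 1204, COL3A1 at 693 and COL2A1 at 273, with no NANOG and no LUM. The next, at 2322, also led with COL1A2, at 820.6, but had NANOG at 60 and the pluripotency gene GDF3 at 542, and no COL1A1 or COL3A1. The third had COL6A1 in the lead, which supplied 57.8% of 1937, with NANOG at 93.2. In the sixth COL2A1 supplied 62% of 1845, with NANOG at 104 and GDF3 at 678. These cells were singled out after their values were seen, and LUM was at 0 in all of the 8 highest.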
